A study of Mus musculus with 6 samples.

Results

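The genes that bring long-chain fatty acids into brain cells, carry them in the cytosol and couple them to coenzyme A were examined in brain lacking Pla2g2e and in wild-type brain. The set was chosen by name and holds 9 genes: the transporter Mfsd2a, the binding proteins Fabp3, Fabp5 and Fabp7, and the long-chain acyl-CoA synthetases Acsl1, Acsl3, Acsl4, Acsl5 and Acsl6. Every non-control spot with 1 of these names was taken, which gave 12 probes (2 each for Acsl1, Acsl6 and Fabp3) of the 39429 probes on the array, and the members are 9 of 23851 genes with a tested probe. All 12 were well above background on all 6 arrays, and each was printed once per array, so all 12 entered the test among 31940 tested probes. Of the 12 probes 0 passed the test, as did 0 of all 31940 tested probes. That does not show that the levels of the 12 were equal.

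The 6 samples were total RNA of brain from male mice on a C57BL/6N background, 3 labelled as Pla2g2e-/- (knockout) and 3 as wild type, each on its own 1-colour array. Pla2g2e encodes a secreted enzyme that cuts phospholipids into a free fatty acid and a lysophospholipid. Titles call both genotypes sham-operated, whereas the treatment text attached to both describes a middle cerebral artery occlusion of 60 min, and groups here follow the titles. The labels name neither the age, nor the brain region, nor the deleted part of the gene, and do not say whether samples of a group came from different mice. The p-values therefore cover the spread among these arrays, and part of that spread may be technical.

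As background, free fatty acids in brain are kept low because they are bound and activated soon after they are taken up or released. Mfsd2a, in the endothelium of the blood-brain barrier, carries docosahexaenoic acid into the brain as lysophosphatidylcholine. Fatty acid binding proteins move the acids through the cytosol, and acyl-CoA synthetases convert them to acyl-CoA, the form that is built into phospholipids, stored or oxidised.

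The first 30 of the 60 bases of 8 probes are shown, from the array files, 5′ to 3′. They are those of the genes with 2 probes, to show how far 2 probes of a gene are separate measurements, and those of Fabp7 and Mfsd2a, which had the lowest and the highest difference between genotypes. Capitals mark the 21 bases that appear in the printed parts of both Fabp3 probes. The shared stretch is longer, 51 bases, and includes the lower-case end of the printed part of probe 2.
Mfsd2a: ctgactgggcctagctcggaacactaatgt
Fabp7: tgaagcactggtcactaattataagtttgt
Fabp3 probe 1: tttatttttTAAAACTGTATCCAAAGGGTG
Fabp3 probe 2: TAAAACTGTATCCAAAGGGTGctccaaggt
Acsl1 probe 1: agagctacggaactatttcaggtcgcagat
Acsl1 probe 2: gcctaacttcatactcgtattcttaattgc
Acsl6 probe 1: atcgtcgataaaccccacaaggcaacactt
Acsl6 probe 2: agagtacttcaaaaagcaaatagaagagct

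The Fabp3 probes start 9 bases apart and share 51 of their 60 bases, so they read almost the same stretch of the transcript. The Acsl1 probes start 1458 bases apart and the Acsl6 probes 34017 bases apart in the genome, with no shared stretch. Which exon or untranslated region lies under a probe is not given here.

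Between 82.0% and 85.3% of non-control spots were well above background per array, with 0 saturated, and probes printed more than once had a median coefficient of variation of 4.17% to 4.80%. The number of arrays, 3 a group, and the spread among them limit the precision. Wild-type 1, 2 and 3 and knockout 1 shared a slide, and knockout 2 and 3 lay on another. On the first principal component (41.4% of the variance) knockout 2 and 3 lay at -34.3 and -31.4, and knockout 1, on the slide of the wild-type arrays, at -9.8. Wild-type 2 and 1 lay at 5.4 and 19.9, and wild-type 3 stood apart at 50.3. Over all spots knockout 1 correlated at 0.996 with wild-type 1 and with wild-type 2, against 0.992 with knockout 2 and with knockout 3. For knockout 2 and 3, slide and genotype cannot be told apart. The median deviation of striatum markers (log2, from the mean of all 6 arrays) was -0.54 to -0.23 on the knockout arrays, against -0.36 and 0.10 on wild-type 2 and 1 and 1.42 on wild-type 3. All 11 neuron, 13 astrocyte, 11 oligodendrocyte and 9 microglia markers were well above background on every array. Striatum markers were lower in knockout brain in 9 of 9 genes (median difference -0.93), and choroid plexus markers in 8 of 8 (-0.58). Other marker lists were lower in knockout brain in 10 of 11 genes for oligodendrocytes (median difference -0.33), 6 of 7 for their precursors (-0.10), 10 of 10 for meninges (-0.44), 7 of 8 for blood leukocytes (-0.50), 5 of 5 for red blood cells (-0.73) and 3 of 4 for adipocytes (-0.30), and in 4 of 11 for neurons (0.04), 4 of 9 for microglia (0.02) and 3 of 6 for muscle (0.03). These counts do not show that the arrays separated by genotype, since genes of a list can move together on an array. Median deviations of red blood cell markers were -1.81, 1.85 and -1.13 on the knockout arrays, against 1.58, -0.44 and -0.03 on the wild-type arrays. Those of oligodendrocyte markers were 0.16, -0.55 and -0.13 on the knockout arrays, against 0.09, 0.65 and -0.23 on the wild-type arrays. The deleted gene itself was dim. Its probe on chromosome 4 at 138438659 to 138438718 read -7.07, -7.87 and -7.83 in knockout brain, against -7.09, -7.26 and -6.67 in wild-type brain, and the groups overlapped (adjusted p = 0.437 in limma). Its probe at 138438368 to 138438427 read -8.42, -8.44 and -8.38 in knockout brain, against -8.50, -8.59 and -9.15 in wild-type brain. These groups did not overlap, with a gap of 0.05 (adjusted p = 0.494 in limma). Only 2 of the 3 wild-type arrays were well above background on it. The 2 probes differed in sign and the genotype labels were not checked by them.

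Levels below are log2 processed signals minus the array's 75th percentile, in the order of replicates 1, 2 and 3, and differences are knockout minus wild type. Levels of different probes cannot be set against each other, since probes differ in how strongly they bind. Each difference comes from limma's fit across all tested probes, with p-values adjusted by the Benjamini-Hochberg method, and its interval is the 95% confidence interval.

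Mfsd2a, the uptake step, had the largest positive difference of the members. Its probe (chromosome 4, 122624182 to 122624241, mm9) read 0.91, 1.16 and 0.93 in knockout brain, against 0.87, 0.79 and 0.76 in wild-type brain. Every knockout array lay above every wild-type array, but the gap between the groups was 0.04 and knockout 2 lay well above the other 2 knockout arrays. The means were 1.00 ± 0.14 in knockout and 0.81 ± 0.06 in wild type (SD, n = 3 each), a difference of 0.19 ± 0.09 (SE), or 1.14-fold with an interval of 0.98-fold to 1.33-fold. It did not pass the test (adjusted p = 0.451 in limma). On the slide that held both genotypes the difference was 0.10, and without knockout 2 it was 0.11.

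Brain endothelium markers, among which Mfsd2a would be counted, did not share its difference between genotypes as a list. Of 17 such markers (Mfsd2a left out), 7 were higher and 10 lower in knockout brain, with a median difference of -0.08. Their summed relative signal was 37.1, 42.5 and 38.0 on the knockout arrays and 38.9, 35.9 and 43.6 on the wild-type arrays. Among the knockout arrays this sum and Mfsd2a were both highest on knockout 2. Among the wild-type arrays the sum was highest on wild-type 3, where Mfsd2a was lowest. Markers of pericytes and smooth muscle, the cells that wrap these vessels, were lower in 9 of 9, with a median difference of -0.27 and a summed relative signal of 3.24 to 4.01 on knockout arrays and 4.41 to 4.50 on wild-type arrays. The differences were uneven, from -0.01, -0.02 and -0.04 for Abcc9, Cspg4 and Kcnj8 to -0.76 for Acta2. The part of these cells in the Mfsd2a values was not tested. In bulk tissue, fewer cells of a type and less RNA per cell cannot be told apart.

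Fabp3, the heart-type binding protein that brain neurons also make, was slightly brighter in knockout brain on both of its overlapping probes. Probe 1 (chromosome 4, 129992643 to 129992702) read 4.18, 4.30 and 4.19 in knockout brain, against 4.14, 4.14 and 3.94 in wild-type brain. Probe 2 (129992652 to 129992711) read 4.35, 4.43 and 4.40 in knockout brain, against 4.29, 4.35 and 4.16 in wild-type brain. The groups were separate by 0.04 on probe 1 and by 0.00 on probe 2, so they all but touched, and wild-type 3 was the lowest array on both. The differences were 0.15 ± 0.08 and 0.13 ± 0.08 (SE), with adjusted p = 0.506 and 0.531 in limma. Without wild-type 3 they were 0.09 and 0.07, and on the slide with both genotypes 0.11 and 0.08.

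Fabp3 and Mfsd2a lie on the chromosome of Pla2g2e. Their probes are 8.4 Mb and 15.8 Mb from the Pla2g2e probes on mm9. DNA around a deleted gene can come from the strain in which the deletion was made, and whether these 2 genes lie in such a stretch was not tested.

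Fabp7, the brain-type binding protein of radial glia and astrocytes with a preference for docosahexaenoic acid, had the largest difference of either sign. Its probe (chromosome 10, 57508039 to 57508098) read 1.35, 1.41 and 1.47 in knockout brain, against 1.54, 1.49 and 1.95 in wild-type brain. The groups did not overlap, but the gap between them was 0.01, and wild-type 3 lay far above the other 5 arrays. The mean was 1.41 ± 0.06 in knockout and 1.66 ± 0.26 in wild type (SD, n = 3 each). The difference was -0.25 ± 0.14 (SE), or 0.84-fold with an interval of 0.67-fold to 1.06-fold (adjusted p = 0.506 in limma). Without wild-type 3 it was -0.10, and on the slide with both genotypes, which includes wild-type 3, it was -0.31.

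Astrocyte markers did not share this pattern. Of 13, 7 were higher and 6 lower in knockout brain, with a median difference of 0.01 and a summed relative signal of 198.3 to 231.6 on knockout arrays and 209.5 to 220.1 on wild-type arrays. Aldoc, the brightest of these markers, weighed most in that sum. Markers of neural progenitors and neuroblasts, cells in which Fabp7 is also made, were lower in 6 of 8. Their median difference was -0.31, and their summed relative signal was 5.62 to 6.44 on knockout arrays and 6.36 to 8.10 on wild-type arrays. Hes5, the brightest of this list, weighed most in the sum. It read 1.96, 2.22 and 2.14 in knockout brain, against 2.19, 2.27 and 2.63 in wild-type brain. Of the 8 markers, Igfbpl1, Mki67, Top2a, Dcx and Sox11 had an unadjusted p under 0.05 in limma toward lower, Nes toward higher, and 0 passed after adjustment. Of all genes, 9.38% had such a p toward lower and 3.0% toward higher. Only 7 of the 8 were well above background on all 6 arrays. In knockout brain Top2a (-7.62, -8.50 and -8.65) and Igfbpl1 (-7.43, -7.61 and -7.50) were dim. The median deviation of the list was -0.19, -0.13 and -0.17 on the knockout arrays, against 0.07, 0.18 and 0.28 on the wild-type arrays. The median deviation of choroid plexus markers was 0.31, -0.60 and -0.59 on the knockout arrays, against 0.74, -0.87 and 0.96 on the wild-type arrays. The part of these cells in the Fabp7 values was not tested.

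**Figure D1:**
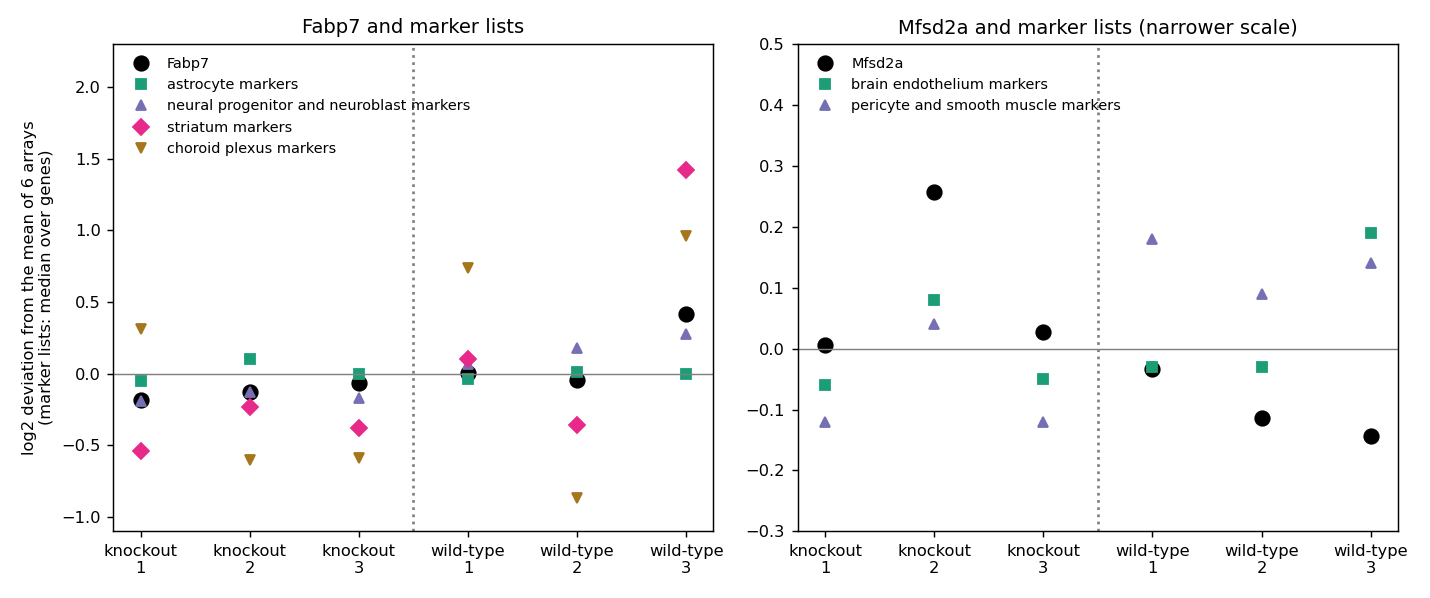
Log2 deviation from the mean of the 6 arrays (y axis) on each array (x axis, knockout left of the dotted line, wild type right of it), for Fabp7 with 4 marker lists on the left and for Mfsd2a with 2 marker lists on the right, on a narrower scale; black circles are the gene and coloured symbols the median over a list's genes. Fabp7 is highest on wild-type 3, where striatum markers stand at 1.42 and choroid plexus markers at 0.96, while astrocyte markers stay near 0. Among the knockout arrays endothelium markers and Mfsd2a are both highest on knockout 2. On wild-type 3 endothelium markers stand at 0.19, while Mfsd2a is at its lowest.

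Fabp5, the epidermal-type binding protein, found in brain endothelium and glia among other cells, was nearly level. Its probe (chromosome 3, 10016185 to 10016244) read 4.16, 4.23 and 4.26 in knockout brain, against 4.29, 4.32 and 4.25 in wild-type brain. The groups overlapped by 0.01, with a range over all 6 arrays of 0.16. The difference was -0.07 ± 0.06 (SE), with an interval of -0.23 to 0.09 (adjusted p = 0.670 in limma).

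Among the synthetases, Acsl3 and Acsl5 had the larger differences. Acsl3, a synthetase of the endoplasmic reticulum and lipid droplets (chromosome 1, 78703500 to 78703559), read 1.88, 1.98 and 1.86 in knockout brain, against 1.87, 1.75 and 1.62 in wild-type brain. Knockout 3 lay 0.01 below wild-type 1, so the groups overlapped. The difference was 0.16 ± 0.09 (SE), with an interval of -0.05 to 0.37 (adjusted p = 0.492 in limma), and it was 0.10 without wild-type 3 and 0.14 on the slide with both genotypes.

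Acsl5, best known from intestine and liver (chromosome 19, 55368743 to 55369331, a span longer than the probe), read 0.74, 0.58 and 0.61 in knockout brain, against 0.53, 0.67 and 0.18 in wild-type brain. Wild-type 3 lay far below the other 5 arrays, and the other 2 wild-type arrays lay within or near the knockout range. The difference was 0.18 ± 0.14 (SE), with an interval of -0.16 to 0.52 (adjusted p = 0.620 in limma). Without wild-type 3 it was 0.04, and on the slide with both genotypes 0.28.

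Acsl4, which prefers arachidonic acid and other polyunsaturated acids and is known for its role in ferroptosis, differed little. Its probe (chromosome X, 138752591 to 138752650) read 2.69, 2.88 and 2.85 in knockout brain, against 2.77, 2.75 and 2.84 in wild-type brain. Knockout 1 was the lowest array and the other 2 knockout arrays were the highest. The difference was 0.02 ± 0.08 (SE), with an interval of -0.17 to 0.22 (adjusted p = 0.916 in limma), and it was -0.09 on the slide with both genotypes, where knockout 1 was the only knockout array.

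Acsl6, the synthetase enriched in brain that activates docosahexaenoic acid, was read by 2 probes far apart in the gene. Probe 2 (chromosome 11, 54174651 to 54174710) read 1.19, 1.27 and 1.11 in knockout brain, against 1.16, 1.27 and 1.17 in wild-type brain, a difference of -0.01 ± 0.07 (SE, adjusted p = 0.983 in limma). Probe 1 (54140634 to 54140693) read -2.83, -2.68 and -2.87 in knockout brain, against -2.67, -3.12 and -2.94 in wild-type brain, a difference of 0.12 ± 0.13 (SE, adjusted p = 0.731 in limma). On both probes the knockout values lay inside the range of the wild-type values, apart from knockout 3 on probe 2, which lay just below it. The interval was -0.19 to 0.18 on the brighter probe 2 and -0.20 to 0.44 on probe 1.

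Acsl1, a synthetase that many tissues use for both storage and oxidation, also had 2 probes. Probe 2 (chromosome 8, 47621232 to 47621291) read 1.92, 1.85 and 1.90 in knockout brain, against 1.99, 2.04 and 1.90 in wild-type brain, a difference of -0.08 ± 0.07 (SE, adjusted p = 0.643 in limma). Probe 1 (47619774 to 47619833) read -2.57, -2.61 and -2.53 in knockout brain, against -2.40, -2.67 and -2.55 in wild-type brain, a difference of -0.03 ± 0.09 (SE, adjusted p = 0.910 in limma). The groups overlapped on both probes.

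**Figure D2:**
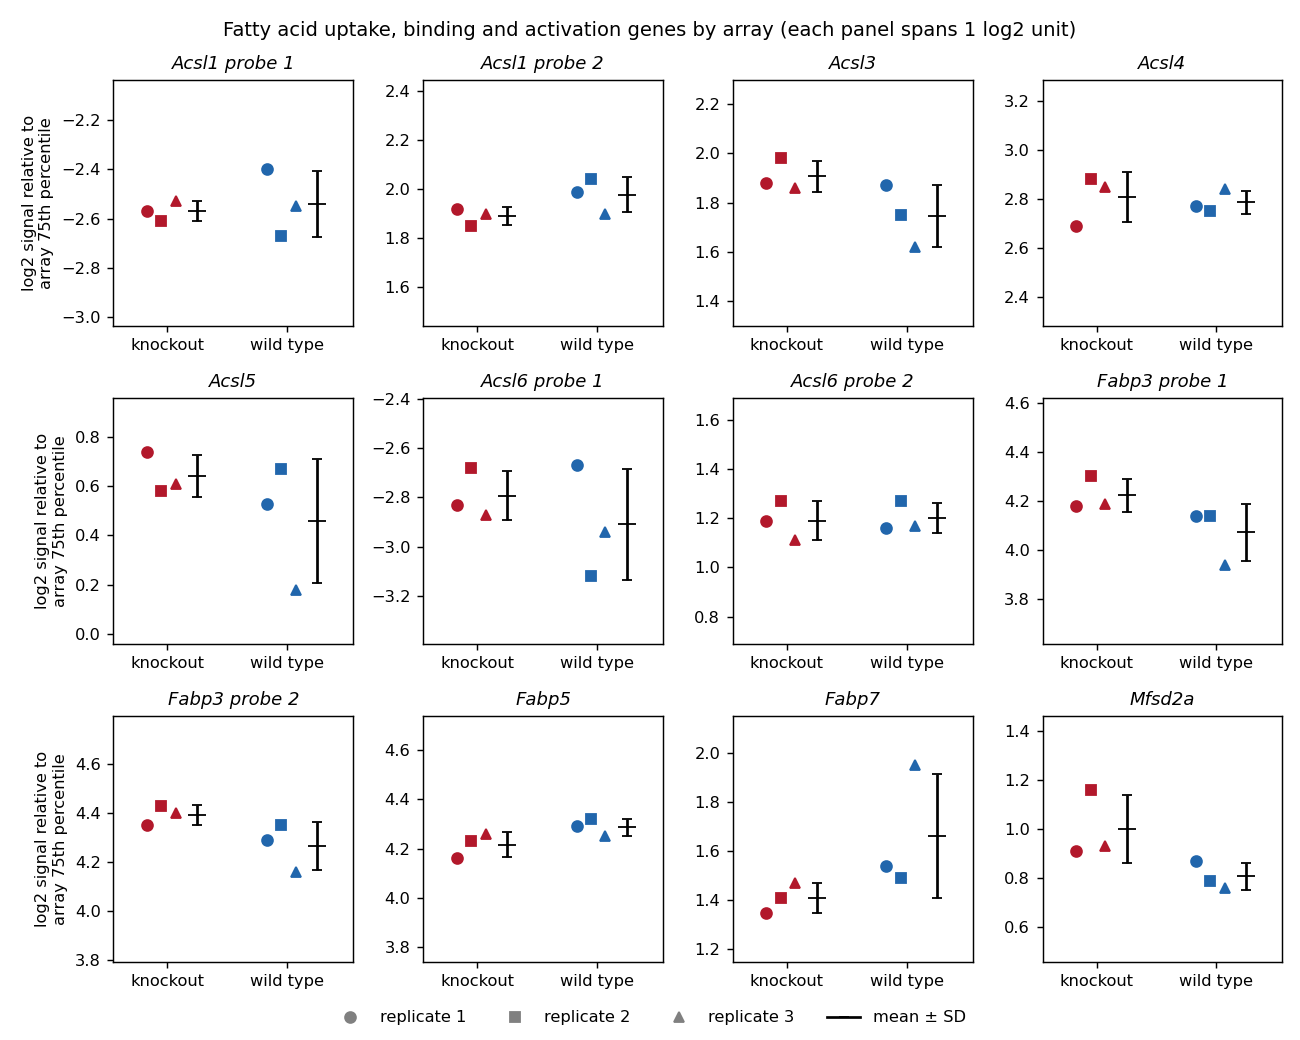
Level of each probe as log2 processed signal, scaled to the 75th percentile of its array (y axis, each panel spanning 1 log2 unit) in knockout (red, left) and wild-type (blue, right) brain for the 12 probes; symbols are the replicates, and black bars the mean ± SD of 3 arrays. Only the Mfsd2a, Fabp7 and Fabp3 panels have groups that do not overlap, and wild-type 3 (blue triangle) is the outlying wild-type array for Fabp7, at 1.95, and for Acsl5, at 0.18.

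Over the 12 probes, 7 were higher and 5 lower in knockout brain, with differences of -0.25 to 0.19 and a median of 0.07. The median over all tested probes was -0.01. The median size of the difference, without its sign, was 0.12 over the 12 probes and 0.11 over all tested probes. Counted by gene with the brightest probe, 5 members were higher and 4 lower, with a median difference of 0.02.

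In limma 0 of 12 probes passed an adjusted p of 0.05, as did 0 of all 31940 probes (0%), and the smallest adjusted p was 0.451 over the members and 0.188 over all probes. At an unadjusted p under 0.05 there were 0 member probes in either direction, where 3.05% of all probes were higher and 9.04% lower. The groups did not overlap in 3 member probes toward higher (Mfsd2a and both Fabp3 probes, which are not separate measurements) and in 1 toward lower (Fabp7). Of all probes, 7.26% were separate toward higher and 11.9% toward lower. The widest intervals were those of Acsl5 and Fabp7, and over the 12 probes the bounds ran from -0.58 to 0.52. Without knockout 1, which leaves each genotype on its own slide, 880 of all tested probes passed the threshold (672 higher, 208 lower) and still 0 of the 12.

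**Figure D3:**
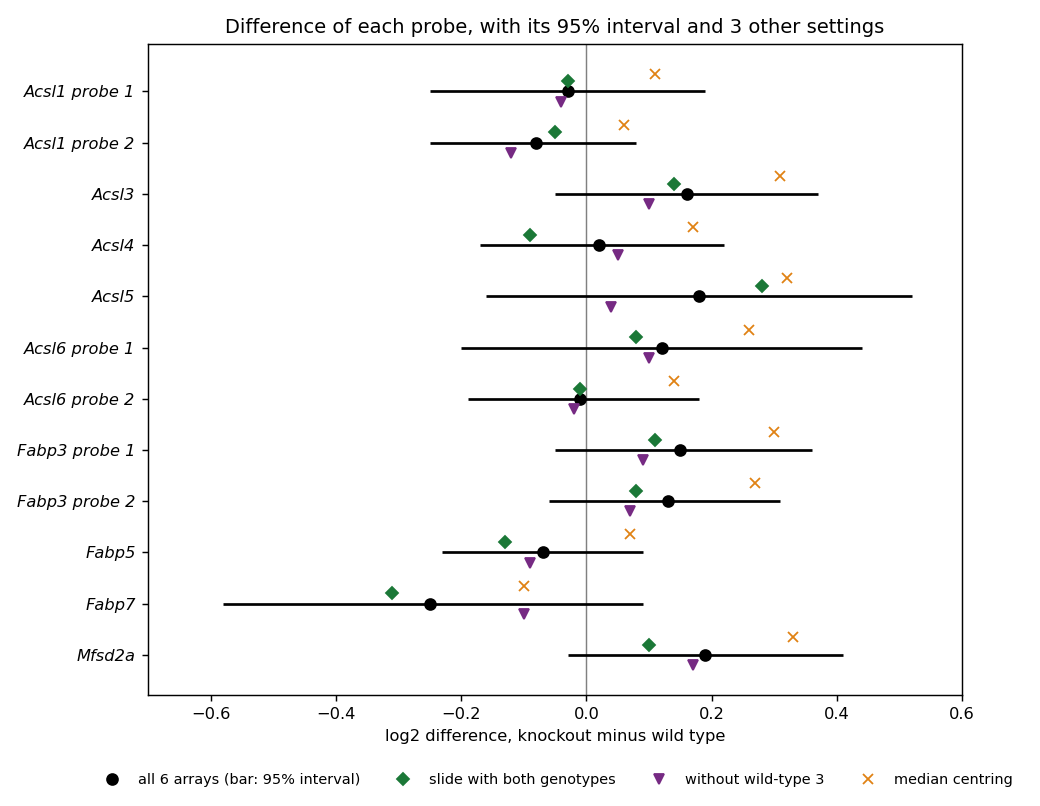
Log2 difference of knockout minus wild type (x axis) for each of the 12 probes (y axis); black circles with bars give the value over 6 arrays with its 95% interval, green diamonds the slide that holds both genotypes, purple triangles the value without wild-type 3, and orange crosses median centring. All 12 intervals include 0, and median centring moves every probe to the right, by about the shift of all probes.

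Other genes of the same pathway were taken from 6 lists of 94 genes in all, of which 88 were tested, 41 higher and 47 lower in knockout brain with a median difference of -0.01. In limma 0 of the 88 passed after adjustment, as did 0 of all 23851 genes (0%), each read by its brightest probe. At an unadjusted p under 0.05, 4 were higher and 3 lower, where 3.0% of all genes were higher and 9.38% lower. The groups did not overlap in 10 toward higher and 8 toward lower, where the shares of all genes were 7.44% and 12.2%.

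Of 16 tested genes in the list of other fatty acid transporters, lipases and receptors, 7 were higher and 9 lower, with a median of -0.04. Got2, an aminotransferase also described as a fatty acid binding protein of the plasma membrane and the brightest of this list, differed by 0.12 ± 0.10 (SE). Lipg, endothelial lipase, read -6.27, -5.86 and -6.13 in knockout brain, against -6.66, -6.80 and -6.31 in wild-type brain, a difference of 0.50 ± 0.17 (SE, adjusted p = 0.351 in limma). Its groups were separate but it was a dim gene.

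Of 14 tested binding proteins, 6 were higher and 8 lower, with a median of -0.05. Dbi, the acyl-CoA binding protein that carries the product of the synthetases, read 4.88, 4.80 and 4.87 in knockout brain, against 4.95, 5.01 and 4.99 in wild-type brain. These groups did not overlap, with a difference of -0.14 ± 0.06 (SE, adjusted p = 0.446 in limma). Crabp2, a carrier of retinoic acid from the same protein family as the Fabp genes, read 0.01, 0.00 and 0.27 in knockout brain, against 0.51, 0.45 and 0.89 in wild-type brain, a difference of -0.52 ± 0.15 (SE, adjusted p = 0.308 in limma). That was the smallest p of the 88 genes, and wild-type 3 was again the highest array.

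Among 11 other acyl-CoA synthetases 5 were higher and 6 lower, with a median of -0.01. Acsbg1, the brightest of them and known from brain, differed by -0.03 ± 0.07 (SE). Acsbg2, best known from testis and dim here, differed by 0.26 ± 0.08 (SE, adjusted p = 0.350 in limma). Among 12 thioesterases, which undo the synthetases' reaction, 8 were higher and 4 lower, with a median of 0.05. Acot1, whose sequence is close to that of other thioesterases and may share signal with them, read 0.65, 0.60 and 0.81 in knockout brain, against 0.90, 1.01 and 0.95 in wild-type brain, a difference of -0.27 ± 0.08 (SE, adjusted p = 0.331 in limma). Acot13, the brightest, was left out on knockout 2 by an outlier mark and differed by 0.06 ± 0.11 (SE) over the other 5 arrays.

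Among 22 genes of mitochondrial and peroxisomal entry and oxidation 10 were higher and 12 lower, with a median of -0.01. Cpt1b, the muscle form of carnitine palmitoyltransferase, read -4.76, -4.92 and -4.83 in knockout brain, against -4.70, -4.31 and -4.17 in wild-type brain, a difference of -0.44 ± 0.15 (SE, adjusted p = 0.352 in limma). The last list covers the response to PPAR, nuclear receptors that fatty acids activate, and includes the receptors Ppara, Ppard and Pparg themselves. Of its 18 tested genes 9 were higher and 9 lower, with a median of -0.02. This list shares Acot1, among others, with the lists above.

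**Figure D4:**
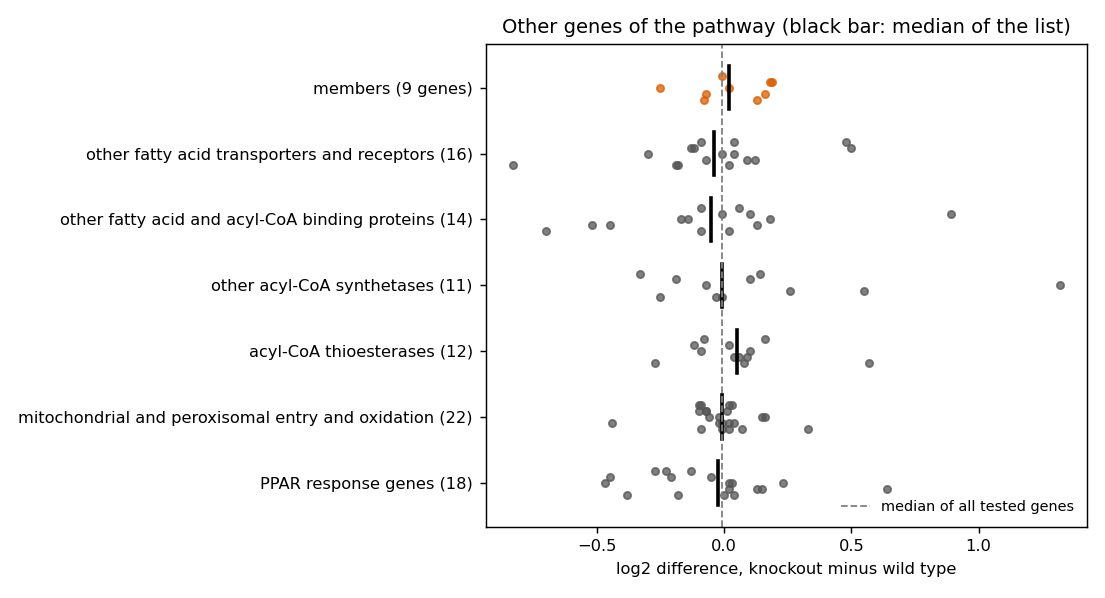
Log2 difference of knockout minus wild type (x axis) for the 9 members, by brightest probe, and for the tested genes of each pathway list (y axis, number of genes in brackets); points are genes, black bars the median of a list and the dashed line the median of all tested genes, -0.01. The members lie between -0.25 and 0.19, and the list medians between -0.05 and 0.05.

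Fabp7 had the widest range over the 6 arrays of the members, 0.60. Of 23597 other genes with a value on every array, the 5 whose values followed it most closely were Prtg, Bfar, Gm2716, Bmp7 and S100a5, with Pearson's r of 0.999, 0.996, 0.996, 0.995 and 0.994 and Spearman's rho of 1.00, 1.00, 1.00, 0.94 and 0.94. They were picked as the closest of many genes over 6 arrays, so no p is given. Without knockout 1 and wild-type 3, the arrays farthest from the median of Fabp7, r was 0.98, 0.95, 0.94, 0.89 and 0.87. S100a5, a calcium-binding protein, read -4.56, -4.47 and -4.27 in knockout brain, against -4.14, -4.09 and -2.66 in wild-type brain. Bmp7, a bone morphogenetic protein, read -0.49, -0.40 and -0.36 in knockout brain, against -0.31, -0.38 and 0.17 in wild-type brain. In each of these 5 genes wild-type 3 was the highest array, which follows from choosing them for likeness to Fabp7. Their rho and their r over fewer arrays rest on the same choice. Gm2716 was dim, at -8.56 on knockout 1 and -7.85 on wild-type 3.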

How the data were processed

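Total RNA of 6 brain samples was labelled with Cy3 and hybridised to 1-colour Agilent arrays of design 026655, per the labels' protocols and the file headers. The deposited files hold each spot's intensity as made by Agilent Feature Extraction 12.1.1.1 (also named in the submitters' processing notes) with protocol GE1_1200_Jun14 on mm9. Per the file headers, processed signals are linear intensities after background subtraction and detrending. The mean signal and local background are uncorrected intensities, as deposited.

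Control spots (1377 per array) and spots marked as outliers (68 to 530) were left out, log2 was taken, spots of a probe were averaged and the 75th percentile of all non-control probes of an array was taken off. Probes that were well above background on all 3 arrays of 1 genotype or both, with at least 2 values per group, were tested with limma 3.58.1 in R 4.3.3, two-sided, with no covariate and Benjamini-Hochberg adjustment at 0.05 across 31940 probes. Exact permutation of 3 against 3 cannot go below p = 0.1 and was not used. Lists were described by counts and medians of each gene's brightest tested probe. The step was tested on simulated data. Names of 29510 probes were matched to the RefSeq table of GRCm38.p6 by accession, and coordinates are those of the files. Relative signals of a list were summed over its genes on the linear scale, so the brightest probes weigh most in a sum.

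Members, pathway lists and marker lists were chosen with earlier results of these data known. The named genes are every member, Pla2g2e, in each pathway list the brightest gene and the gene of smallest p, and the 5 genes most like the member of widest range. Of the genes this rule names in the pathway lists, 1 gene is not reported here. Marker genes and the clauses on single arrays were named after their values were seen. Replicate numbers were not used as pairs: deviations from the group means correlated at -0.04, -0.15 and -0.10 for arrays of equal number. Alternatives were other scalings, normexp, other filters, 1 probe per gene, slide and replicate blocks, and leaving out each array.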

Additional observations from a re-analysis of the deposited data

How the results depend on the processing

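Under all 17 alternatives 0 member probes passed the threshold. Of all tested probes 0 passed under each, apart from 880 without knockout 1 (0 to 880 over the 6 fits that leave out an array). With the replicate number as a block 0 member probes passed as well, and no call changed. Since the main fit also had 0 calls, this does not show whether the numbers pair the samples. At an unadjusted p under 0.05 there were 3861 probes over all, against 1757 with the slide as a fixed block, 1352 within the slide that holds both genotypes, 2364 without knockout 2 and 2220 without knockout 3. Lower probes outnumbered higher ones by 2888 to 973, but not after median centring (4214 higher of 5546) or quantile normalization (2332 higher of 3841). Median centring moved the median of all probes to 0.13 and that of the 12 member probes to 0.21. At that setting 4 member probes, Mfsd2a, Acsl3 and both overlapping Fabp3 probes, had an unadjusted p under 0.05 in limma, all higher (adjusted p = 0.287 each). Of all 31940 tested probes, 4214 were higher at such a p there. After normexp 1 member probe, of Mfsd2a, had such a p toward higher, as did 772 of all 31940. Without wild-type 1 it was 1 as well, of Acsl3, where 1313 of all 32030 did. The member median was 0.02 with 1 probe per gene and 0.02 to 0.11 over the fits that leave out an array. Of 201 recomputed member differences 12 had the opposite sign. These were Acsl1 probe 1 (0.11 after median centring, 0.06 after quantile normalization, -0.10 to 0.04 over the fits that leave out an array, the highest without wild-type 1), Acsl1 probe 2 (0.06) and Fabp5 (0.07) after median centring, Acsl4 (-0.09 with the slide as a block or within the shared slide, -0.01 to 0.08 over such fits, the lowest without knockout 2) and Acsl6 probe 2 (0.14 after median centring, 0.02 after normexp, -0.05 to 0.04 over such fits, with 0.04 without knockout 3 and 0.03 without wild-type 2). Their cause was not tested, apart from median centring, which shifts all probes. The Pla2g2e probe at 138438368 differed by -0.06 after normexp. Mfsd2a ranged from 0.10 to 0.33 and Fabp7 from -0.33 to -0.10 over all settings. Signal over background did not limit the members, while Pla2g2e and Lipg were dim.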
